A study of Sus scrofa with 15 samples.

Results

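The testes of piglets fed cow's milk formula with added 17-beta-estradiol (M + E2) were compared with the testes of piglets fed the same formula with added genistein (M + G). These were 6 of the 15 RNA-seq libraries of the study, 3 in each group, and all genes with enough reads were compared. The libraries were chosen by diet, and no measured value was used to choose them. Male Dutch Landrace Duroc piglets suckled until postnatal day 2, were then fed by bowl, and gave their testes on day 21. Each library was taken as 1 piglet, which the replicate numbers in the labels do not state. Estradiol was added at each feeding by body weight, and the labels give 15 to 30 pmol/L in serum as the aim. Serum levels were not analysed here. Genistein was given at 84 mg/L, which the methods state as its concentration in the diet and the labels as its concentration in serum. The doses were set on different grounds and are not matched, so the values below compare the formulas as fed and not the potency of the compounds. Both groups received Similac Advance, and so did the Milk group, which had no addition and whose 3 libraries are given beside them.

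Estradiol is the main natural ligand of the estrogen receptors. Genistein is a soy isoflavone, a plant polyphenol with no steroid skeleton, which binds the same receptors more weakly and prefers ESR2 over ESR1. In the young boar testis, Leydig cells make androgens and large amounts of estrogens from cholesterol, Sertoli cells make anti-Müllerian hormone (AMH) and multiply, and the germ cells are gonocytes and early spermatogonia. Leydig cells can make cholesterol themselves, through the mevalonate and sterol pathway.

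The 6 libraries held 6097552 to 9488579 reads on genes. Levels are given as CPM, reads per 1000000 reads of the library, after TMM normalization in edgeR. The markers of testis were present in all 6 libraries, among them the Leydig cell genes INSL3 (2946 to 5421 CPM) and LHCGR (132 to 189 CPM) and the Sertoli cell gene AMH (564 to 1262 CPM). M + G 2 stood apart from the other M + G libraries. The chi-square per degree of freedom over genes was 34.6 between M + G 1 and M + G 2 and 34.5 between M + G 2 and M + G 3, against 12.3 between M + G 1 and M + G 3. Between M + E2 libraries it was 11.05 to 19.56. M + G 2 held the highest levels of epithelial and contractile genes among the 6 libraries, and list medians and named genes that moved by over 1.5 times without it are given both ways. Over all genes the median log2 fold change was -0.02 with M + G 2 and 0.01 without it. In whole testis, fewer cells of a type cannot be told apart from less RNA per cell.

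A gene was called where its adjusted p was at most 0.05 and its groups differed 2-fold or more. By edgeR's quasi-likelihood test, 0 of 15634 genes (0%) were called, and the smallest adjusted p was 0.159, for HPD. An unadjusted p below 0.05 was found for 1096 genes (7.01%), of which 467 were higher in M + E2 and 629 were lower. This number was 657 without M + G 2 and 724 without M + E2 3. EdgeR's exact test, the test used in the study, called 99 of 14691 genes (0.674%), 44 of them higher in M + E2 (0.3%) and 55 lower (0.374%). DESeq2 called 16 genes (0.102%), 6 higher and 10 lower, and all 16 were among the 99. The exact test called 52 genes without M + E2 3 and 221 without M + G 3, and 21 of the 99 were called whichever library was left out. The genes below are therefore described by their values, and each call named is that of the exact test or of DESeq2. Unless another test is named, the fold changes, confidence intervals and p-values are those of the quasi-likelihood test.

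The clearest separations were of single genes. HPD, which encodes the tyrosine-degrading enzyme 4-hydroxyphenylpyruvate dioxygenase, was at 59.4, 40.5 and 45.8 CPM in M + E2 and at 208, 163 and 193 CPM in M + G. The groups did not overlap, and Milk, at 253, 138 and 152 CPM, lay with M + G. HPD was 3.87-fold lower in M + E2 (log2 fold change -1.95, 95% CI -2.57 to -1.34, adjusted p = 0.159), and it was called by the exact test (adjusted p = 1.04e-18) and by DESeq2 (adjusted p = 3.61e-07). The gene lies on chromosome 14 at 30845608 to 30857658 of Sscrofa11.1.

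TVP23A, a Golgi membrane protein gene on chromosome 3 (32275481 to 32318598), was the leading gene in the opposite direction. Its levels were 24.0, 13.6 and 13.6 CPM in M + E2 and 3.93, 5.23 and 6.19 CPM in M + G. All M + E2 libraries were above all M + G libraries, and Milk (4.12, 3.72 and 5.89 CPM) again lay with M + G. The difference was 3.31-fold (log2 fold change 1.73, 95% CI 1.14 to 2.31, adjusted p = 0.183), and both the exact test and DESeq2 called it.

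LINGO1, known as an inhibitor of axon growth and myelination, was at 48.3, 43.1 and 35.8 CPM in M + E2 and at 14.9, 16.0 and 20.8 CPM in M + G. CSMD3, a large membrane protein gene, was at 21.4, 27.5 and 12.1 CPM in M + E2 and at 8.38, 8.42 and 8.78 CPM in M + G. APBA2, an adaptor of the amyloid precursor protein, was at 8.58, 7.73 and 7.17 CPM against 4.19, 3.63 and 3.26 CPM. All 3 genes had higher levels in every M + E2 library than in any M + G library, with log2 fold changes of 1.29, 1.25 and 1.08 in that order, and the exact test and DESeq2 called each.

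For TAGLN3 and ITPRID1 the M + G libraries, and not the M + E2 libraries, lay away from Milk. TAGLN3, a transgelin of neurons, was at 6.83, 8.74 and 9.91 CPM in M + E2, at 3.54, 3.41 and 3.60 CPM in M + G and at 6.41, 8.43 and 7.14 CPM in Milk. ITPRID1 was at 61.9, 38.3 and 50.7 CPM in M + E2, at 25.4, 18.3 and 21.6 CPM in M + G and at 36.8, 33.7 and 45.0 CPM in Milk. The log2 fold changes of M + E2 over M + G were 1.27 and 1.21, and both genes were called by the exact test and by DESeq2. Against Milk, the log2 difference of M + G was -1.06 for TAGLN3 and -0.82 for ITPRID1, and that of M + E2 was 0.21 and 0.38.

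**Figure D1:**
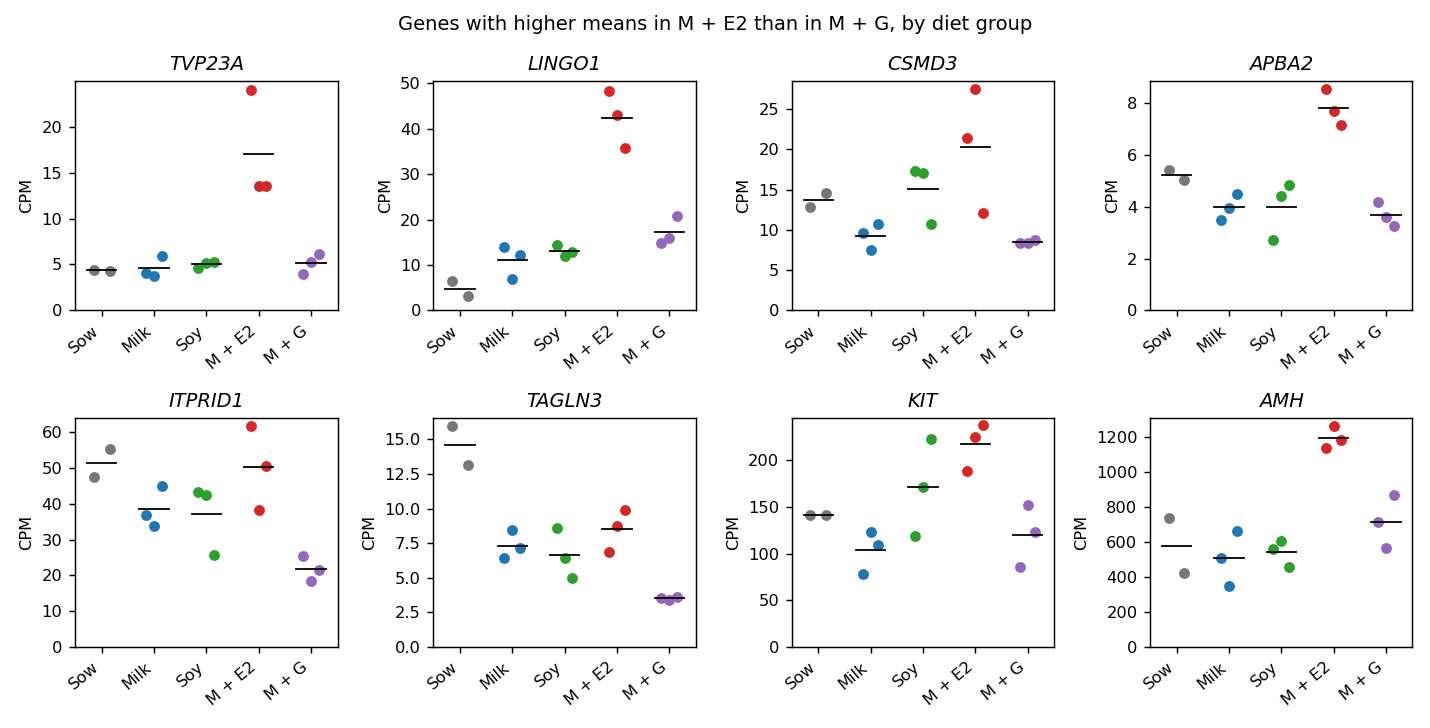
Level in CPM (linear axes from 0) of 8 genes with higher means in M + E2 than in M + G, with 1 point per library and a black line at the mean of each diet group. The means of TVP23A, LINGO1, CSMD3, APBA2, KIT and AMH were highest in M + E2, whereas for ITPRID1 and TAGLN3 the M + G libraries were below Milk.

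Among genes lower in M + E2, the urea cycle gene ASL (argininosuccinate lyase) was at 40.3, 40.5 and 45.5 CPM in M + E2 and at 85.9, 81.7 and 83.5 CPM in M + G. Its spread within each group was small next to the difference (log2 fold change -0.99, 95% CI -1.41 to -0.57), and it stayed just under the 2-fold limit. CIB4, a calcium-binding protein gene, was at 1.16, 1.39 and 0.949 CPM against 3.54, 3.63 and 4.28 CPM, from 8 to 11 reads in the M + E2 libraries. CYB561, which encodes a cytochrome b561 of secretory granules, was at 11.19, 11.15 and 10.86 CPM against 36.5, 18.2 and 23.0 CPM. The mitotic kinase gene NEK6 was at 44.0, 44.1 and 38.3 CPM against 74.2, 66.9 and 62.6 CPM (log2 fold change -0.69). None of these 4 genes overlapped between the groups. The exact test and DESeq2 called CIB4 and CYB561.

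The other genes that DESeq2 called and that had a symbol were EPCAM, STAR, SOAT1, SLC5A7 and FBP2, which all had lower means in M + E2. The choline transporter gene SLC5A7 was at 5.09, 0.633 and 2.11 CPM in M + E2 and at 38.1, 5.86 and 14.5 CPM in M + G. FBP2, a fructose-bisphosphatase of gluconeogenesis, was at 188, 110 and 32.5 CPM against 594, 507 and 411 CPM. The groups did not overlap for either gene, although the libraries of a group differed several-fold.

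Genes of cholesterol synthesis were lower in M + E2 than in M + G. Of the 33 sterol synthesis and uptake genes tested, 29 had a negative log2 fold change and the median was -0.84, against -0.02 over all genes. In all, 20 were lower at an unadjusted p below 0.05 (4.02% of all genes were) and 1 was higher (2.99%). For 20 the M + E2 libraries lay entirely below the M + G libraries (10.9% of all genes). The exact test called 6 of the 33, all lower (0.374% of all genes were called lower). The median was -0.85 without M + G 2. At an unadjusted p below 0.05, 18 were then lower, as were 385 of all 15540 genes then tested. Summed over the list, the level was 7083, 7580 and 5021 CPM in M + E2 and 12203, 8949 and 9083 CPM in M + G.

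The members covered the pathway from its first steps to its end. HMGCS1, which makes HMG-CoA, was at 534, 579 and 406 CPM in M + E2 and at 1399, 954 and 882 CPM in M + G (log2 fold change -1.09, 95% CI -1.76 to -0.42). It was lower in every M + E2 library than in any M + G library, and the exact test called it.

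MVK, IDI1 and FDPS, which carry mevalonate to farnesyl diphosphate, had log2 fold changes of -1.29, -1.15 and -1.14, and the exact test called all 3. FDFT1, which commits farnesyl diphosphate to sterols as squalene, was at 193, 142 and 162 CPM in M + E2 and at 325, 345 and 289 CPM in M + G. SQLE, which oxidizes squalene, was at 73.0, 53.8 and 68.0 CPM against 144, 116 and 93.1 CPM. MSMO1, a sterol C4 oxidase, was at 233, 295 and 190 CPM against 655, 611 and 479 CPM, and the exact test called it (adjusted p = 9.31e-06). None of these 6 genes overlapped between the groups.

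SOAT1, which esterifies cholesterol for storage in droplets, was at 201, 154 and 110 CPM in M + E2 and at 465, 317 and 418 CPM in M + G. It lies on chromosome 9 at 121045211 to 121112393, was 2.59-fold lower in M + E2 (log2 fold change -1.37, 95% CI -2.10 to -0.64), and was called by the exact test and by DESeq2. The exporter gene ABCA1 was the list member that was higher at an unadjusted p below 0.05, at 60.3, 51.9 and 56.0 CPM against 42.8, 30.2 and 37.5 CPM. SREBF2, the transcription factor of the pathway, overlapped between the groups, with a log2 fold change of -0.04 (95% CI -0.60 to 0.52), and of -0.14 without M + G 2.

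Of the 27 steroidogenesis genes tested, 20 had lower means in M + E2, with a median log2 fold change of -0.37, and the median was -0.20 without M + G 2 and -0.30 without M + G 1. Of the 27, 5 were lower (4.02% of all genes were) and 0 were higher (2.99%) at an unadjusted p below 0.05 by edgeR's quasi-likelihood test. The exact test (0.674% of all genes) and DESeq2 (0.102%) each called 1, STAR. STAR encodes the protein that brings cholesterol into the mitochondrion, the step that limits steroid synthesis. It lies on chromosome 15 at 48377597 to 48385398. Its level was 1332, 1686 and 780 CPM in M + E2 and 3745, 3643 and 3232 CPM in M + G. The groups were far apart, and Milk spread from near M + E2 to above M + G (5484, 1783 and 3299 CPM). STAR was 2.80-fold lower in M + E2 (log2 fold change -1.48, 95% CI -2.30 to -0.66, adjusted p = 0.511, exact test adjusted p = 6.36e-05).

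The enzymes after STAR differed less. CYP11A1, which cleaves the cholesterol side chain, was at 1612, 1705 and 1164 CPM in M + E2 and at 2601, 2328 and 2320 CPM in M + G. Its libraries did not overlap, with a log2 fold change of -0.69 (95% CI -1.39 to 0.00). FDX1, the ferredoxin that feeds electrons to CYP11A1, was at 736, 693 and 558 CPM against 1337, 1309 and 980 CPM. CYP17A1, which makes androgens, was at 6952, 6644 and 5936 CPM against 9335, 7681 and 8199 CPM, with a log2 fold change of -0.37 (95% CI -1.11 to 0.37).

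CYP19A1, which encodes aromatase, was at 2212, 1799 and 1759 CPM in M + E2 and at 4538, 3561 and 2849 CPM in M + G. The groups did not overlap, and the log2 fold change was -0.92 (95% CI -1.63 to -0.22). The pig has near-identical aromatase genes, so the reads of CYP19A1 may be shared with its copies and its value is uncertain. HSD17B4, an enzyme of peroxisomal fat oxidation that also oxidizes estradiol, was at 1098, 990 and 897 CPM against 1874, 1656 and 1515 CPM. HSD17B2, which oxidizes estradiol to estrone, was not on the list. It was at 15.1, 23.8 and 1.79 CPM in M + E2 and at 134, 56.8 and 67.0 CPM in M + G, and the exact test called it (adjusted p = 0.0152).

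The Leydig cell genes INSL3 and LHCGR did not separate the groups. INSL3, a hormone of testis descent, was at 3965, 2946 and 4895 CPM in M + E2 and at 4413, 3024 and 5421 CPM in M + G (log2 fold change -0.12, 95% CI -0.79 to 0.55, and -0.32 without M + G 2). LHCGR, the receptor for luteinizing hormone, had a log2 fold change of 0.19 (95% CI -0.40 to 0.78, and 0.10 without M + G 2). Of the 11 Leydig cell markers tested, several of which are also steroidogenesis genes, 9 had lower means in M + E2 (median log2 fold change -0.25, and -0.16 without M + G 2), and their summed level was 13634 to 14795 CPM in M + E2 and 17515 to 21025 CPM in M + G. The part of Leydig cell content in the steroidogenic and sterol differences was not tested.

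**Figure D2:**
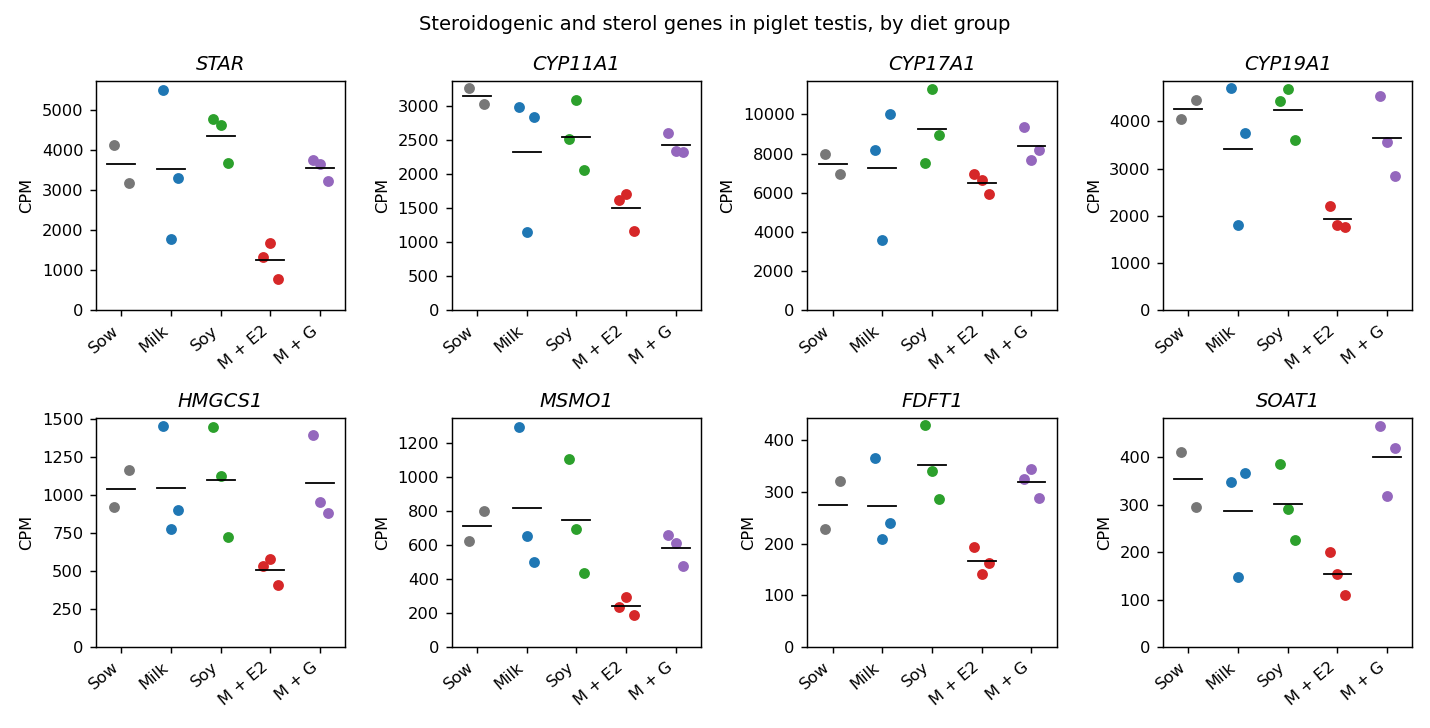
Level in CPM (linear axes from 0) of 4 steroidogenic genes (upper row) and 4 sterol genes (lower row), with 1 point per library and a black line at the mean of each diet group. For all 8 genes the M + E2 points lay below the M + G points, and the Milk points spread widely.

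All 64 nuclear genes of oxidative phosphorylation had a negative log2 fold change, with a median of -0.39. For 39 of them the M + E2 libraries lay entirely below the M + G libraries (10.9% of all genes). At an unadjusted p below 0.05, 10 were lower (4.02% of all genes were). Without M + G 2, 61 of 64 were negative, with a median of -0.34. NDUFB11, a subunit of complex I, was at 35.9, 35.6 and 29.5 CPM in M + E2 and at 80.0, 69.0 and 53.9 CPM in M + G (log2 fold change -1.01, 95% CI -1.57 to -0.45). UQCRC1 of complex III and NDUFV1 of complex I had log2 fold changes of -0.61 and -0.56. The exact test with the 2-fold limit (0.674% of all genes) and DESeq2 (0.102%) called 0 genes of this list.

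All 13 protein-coding genes of the mitochondrial genome were also lower, with a median log2 fold change of -0.54. Their summed level was 47908, 40947 and 38447 CPM in M + E2 and 77581, 51071 and 53218 CPM in M + G, without overlap. The largest of the M + G values was that of M + G 1. Of the 13, ND2 and ND3 were lower at an unadjusted p below 0.05 (4.02% of all genes were), with log2 fold changes of -0.64 each. By contrast, the 57 cytoplasmic ribosomal protein genes had a median of -0.04, and of 0.12 without M + G 2. Of the 57, 0 had an unadjusted p below 0.05 (7.01% of all genes did). The quasi-likelihood test (0% of all genes), the exact test (0.674%) and DESeq2 (0.102%) called 0 of them.

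Of the 25 antioxidant genes, 20 had lower means in M + E2 and the median log2 fold change was -0.46. Among them 8 were lower at an unadjusted p below 0.05 (4.02% of all genes were), and for 15 the M + E2 libraries lay entirely below the M + G libraries (10.9% of all genes). SRXN1, which repairs oxidized peroxiredoxins, was at 37.4, 66.0 and 38.3 CPM in M + E2 and at 127, 131 and 110 CPM in M + G, and it was called by the exact test (log2 fold change -1.38, adjusted p = 9.31e-06). GSR, PRDX6 and SOD1, which reduce glutathione, remove peroxides and dismutate superoxide, had log2 fold changes of -0.63, -0.73 and -0.62, with no overlap between the groups. GSTO1, a glutathione transferase of the drug-metabolizing enzyme list, was at 106, 121 and 99.7 CPM against 235, 270 and 195 CPM, and the exact test called it (adjusted p = 4.35e-06).

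Of 24 genes of glycolysis and glucose sensing, 16 had lower and 8 higher means in M + E2. The median log2 fold change was -0.10, and -0.20 without M + G 2. The lactate carrier gene SLC16A1 was at 49.4, 51.4 and 58.1 CPM in M + E2 and at 104, 111 and 86.2 CPM in M + G. TPI1, a glycolytic enzyme, was also lower (log2 fold change -0.50), whereas PFKFB3, an activator of glycolysis, was at 73.1, 82.8 and 74.1 CPM against 52.5, 37.0 and 58.1 CPM. None of these 3 overlapped between the groups, and each had an unadjusted p below 0.05.

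**Figure D3:**
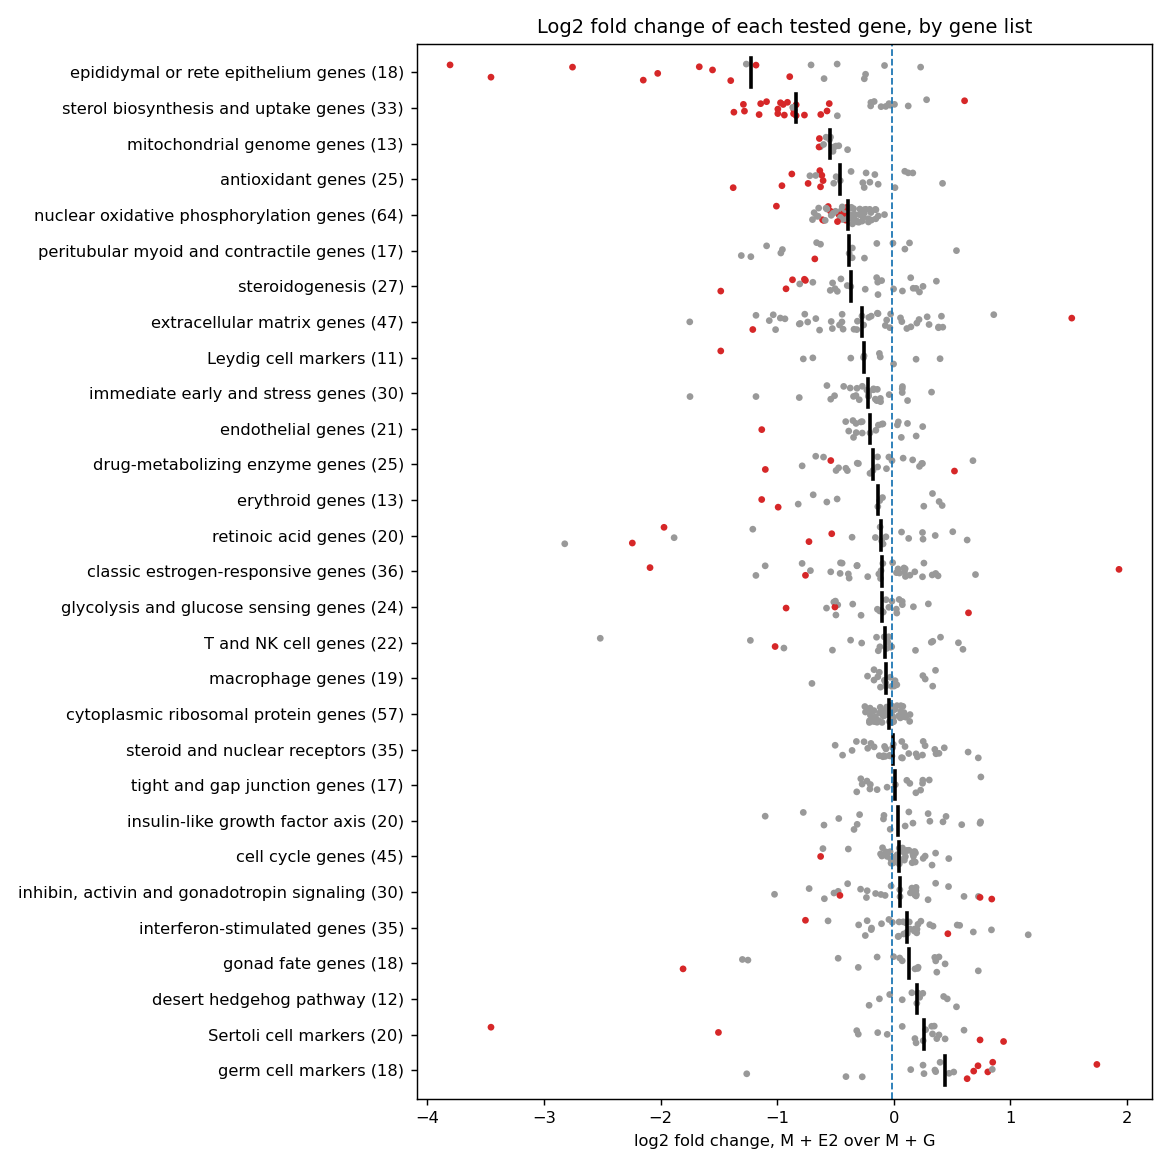
Log2 fold change of M + E2 over M + G for each tested gene of 29 lists, with the number of genes tested in brackets. Points in red had an unadjusted p below 0.05, black bars are list medians and the dashed line is the median over all 15634 genes. The medians of the epithelial and sterol lists were lowest and those of Sertoli and germ cell markers highest. Without M + G 2 the epithelial median was -0.56 and the Sertoli median 0.07.

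Most germ cell genes lay on the other side. Of 18 markers tested, 15 had higher and 3 had lower means in M + E2. The median log2 fold change was 0.44, and single markers ranged from -1.26 to 1.74. At an unadjusted p below 0.05, 6 were higher (2.99% of all genes were) and 0 were lower (4.02%) by edgeR's quasi-likelihood test. For 9 of the 18 the M + E2 libraries lay entirely above the M + G libraries (8.49% of all genes). The summed level was 400, 453 and 456 CPM in M + E2 and 262, 346 and 294 CPM in M + G. KIT alone held 189, 225 and 238 CPM of these sums in M + E2 and 86.3, 152 and 124 CPM in M + G.

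LIN28B, an RNA-binding protein of immature germ cells, was at 2.62, 2.28 and 2.53 CPM in M + E2 and at 0.524, 0.853 and 0.788 CPM in M + G. It was the marker with the largest fold, 3.35-fold higher (log2 fold change 1.74, 95% CI 0.85 to 2.63), and the exact test called it (adjusted p = 0.0062). KIT, the receptor of differentiating spermatogonia, was at 189, 225 and 238 CPM against 86.3, 152 and 124 CPM. Its groups did not overlap (log2 fold change 0.85, 95% CI 0.30 to 1.40). KIT is also made by interstitial and mast cells.

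FGFR3, a receptor of early spermatogonia, was at 19.8, 27.2 and 19.7 CPM against 14.9, 12.2 and 14.4 CPM. PIWIL2, DND1 and TDRD1, which act in small RNA pathways and messenger RNA control of germ cells, had log2 fold changes of 0.72, 0.81 and 0.63, again with no overlap. The general germ cell marker DDX4 was at 5.23, 4.81 and 7.07 CPM in M + E2 and at 6.29, 3.73 and 3.49 CPM in M + G, so its groups overlapped (log2 fold change 0.35, 95% CI -0.51 to 1.22, and 0.24 without M + G 2).

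Of 20 Sertoli cell markers, 14 had higher means in M + E2. The median log2 fold change was 0.26, and 0.07 without M + G 2. An unadjusted p below 0.05 was found for 2 higher genes, AMH and GDNF (2.99% of all genes), and for 2 lower genes, CTSL and KRT18 (4.02%). AMH, the hormone of immature Sertoli cells that regresses the Müllerian ducts, was at 1133, 1262 and 1183 CPM in M + E2 and at 712, 564 and 866 CPM in M + G. The M + E2 libraries were all higher, with a log2 fold change of 0.74 (95% CI 0.15 to 1.33), and Milk was at 509, 349 and 662 CPM. GDNF, the growth factor of spermatogonial stem cells, was at 3.20, 2.91 and 4.11 CPM against 1.83, 2.13 and 1.35 CPM. FSHR and WT1 had log2 fold changes of 0.60 (95% CI -0.08 to 1.29, and 0.37 without M + G 2) and 0.35 (95% CI -0.03 to 0.72).

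CTSL, a lysosomal protease that Sertoli cells secrete, was at 11.8, 8.74 and 6.75 CPM in M + E2 and at 28.9, 23.2 and 24.8 CPM in M + G, and the exact test called it (log2 fold change -1.50, adjusted p = 1.88e-06). KRT18, a keratin that is also on the epithelial list, was at 0.145, 1.77 and 0.105 CPM against 1.31, 19.2 and 1.69 CPM and overlapped. Of the hormone signaling genes, BMPR1B was at 7.99, 6.59 and 7.38 CPM against 3.93, 4.69 and 3.60 CPM, and GDF9 at 8.87, 10.8 and 7.91 CPM against 11.9, 12.7 and 13.3 CPM. The inhibin subunit gene INHA had a log2 fold change of 0.05 (95% CI -0.58 to 0.68), and of -0.19 without M + G 2.

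Epithelial genes were higher in M + G, most of all in M + G 2. Of 18 genes of epididymal or rete epithelium tested, 17 had lower means in M + E2, with a median log2 fold change of -1.22, and 10 were lower at an unadjusted p below 0.05 (4.02% of all genes were). Without M + G 2 the median was -0.56, over 16 genes, of which 2 were lower at an unadjusted p below 0.05, as were 385 of all 15540 genes then tested. The summed level was 161, 189 and 156 CPM in M + E2, and 269, 581 and 234 CPM in M + G. The M + G libraries were therefore all higher, and M + G 2 stood far above the others. The part of epithelial tissue in the libraries in these differences was not tested.

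EPCAM, an adhesion molecule of epithelia on chromosome 3 (93169800 to 93185221), was at 0.727, 0.253 and 1.05 CPM in M + E2, from 2 to 10 reads, and at 2.75, 22.1 and 4.61 CPM in M + G. The groups did not overlap, and Milk (0.611, 0.372 and 0.251 CPM) lay with M + E2. The log2 fold change was -3.81 (95% CI -5.53 to -2.09, adjusted p = 0.511) and -2.39 without M + G 2. The exact test called EPCAM whichever library was left out, and DESeq2 called it.

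PAX2, a transcription factor of urogenital ducts, was at 0.436, 0.127 and 0.422 CPM against 0.655, 4.48 and 1.69 CPM, and without M + G 2 it did not pass the count filter. CDH1, the epithelial cadherin, had a log2 fold change of -1.55, and of -0.77 without M + G 2. CLDN7 (-2.02, and -1.10 without M + G 2), KRT8 (-1.40, and -0.70) and KRT18 (-3.45, and -1.16) overlapped between the groups. KRT14, a keratin of basal epithelial cells that was not on the list, was at 2.91, 4.43 and 5.48 CPM against 7.07, 27.0 and 10.5 CPM (log2 fold change -1.79, and -1.03 without M + G 2), and the exact test called it (adjusted p = 0.0222).

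Among genes that handle vitamin A, STRA6 and ALDH1A1 were also highest in M + G 2. STRA6, which takes up retinol, was at 2.47, 1.27 and 1.37 CPM in M + E2 and at 4.06, 10.7 and 5.06 CPM in M + G (log2 fold change -1.97, and -1.44 without M + G 2). ALDH1A1, which makes retinoic acid, was at 14.5, 12.3 and 13.1 CPM against 42.4, 126 and 20.6 CPM (-2.24, and -1.24 without M + G 2). The exact test called both. RDH10, which makes retinal, was at 15.3, 13.9 and 19.0 CPM against 30.6, 23.6 and 25.8 CPM, and its log2 fold change was -0.73 with all libraries and -0.81 without M + G 2. The groups did not overlap for any of the 3. Over the 20 retinoic acid genes the median was -0.11, and 4 were lower at an unadjusted p below 0.05 (4.02% of all genes were). Without M + G 2 the median was 0.11, with 14 genes higher. Of the 20, 2 were then lower at an unadjusted p below 0.05, as were 385 of all 15540 genes then tested.

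**Figure D4:**
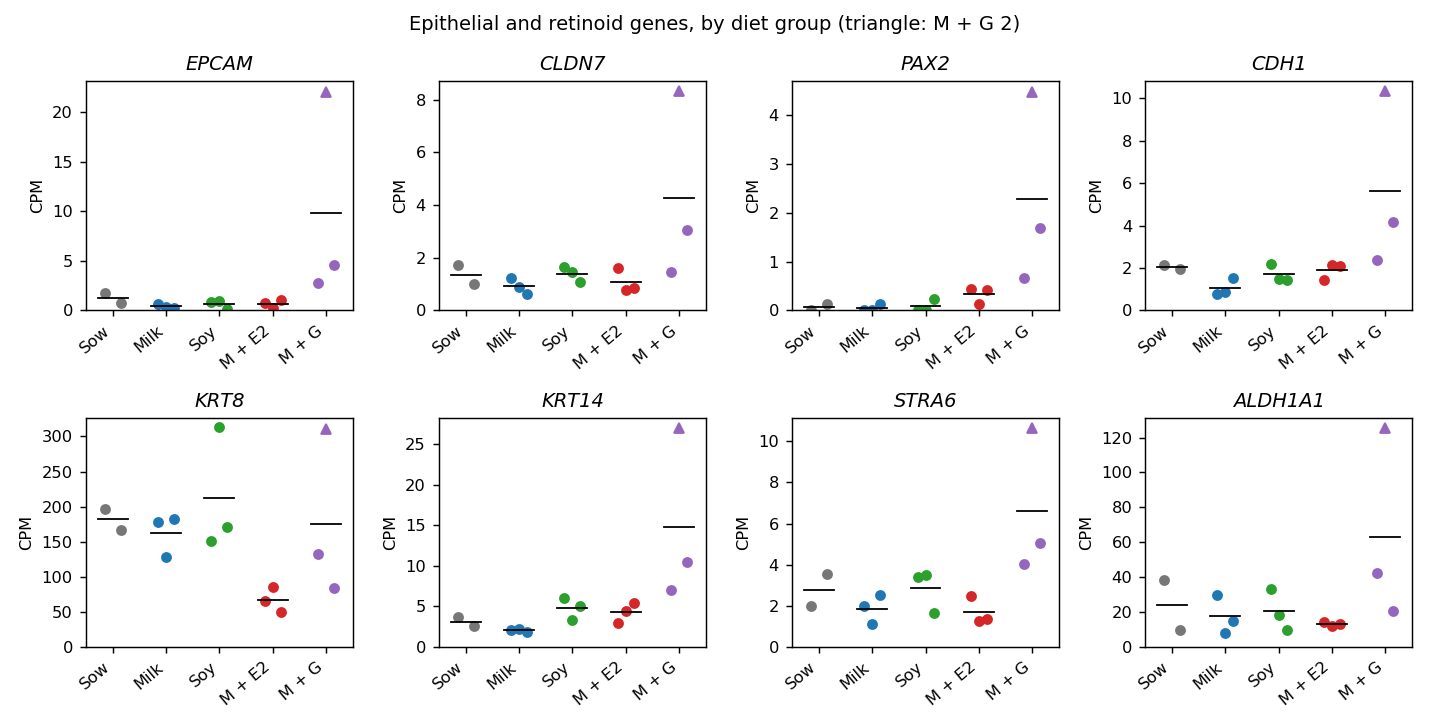
Level in CPM (linear axes from 0) of 6 epithelial genes and of the retinoid genes STRA6 and ALDH1A1, with 1 point per library, a black line at the mean of each diet group and M + G 2 as a triangle. M + G 2 was the highest M + G library for each gene.

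As lists, receptors and known targets of estrogen showed little common direction. Of 35 steroid and nuclear receptor genes, 0 had an unadjusted p below 0.05 in edgeR's quasi-likelihood test (7.01% of all genes did). The exact test (0.674% of all genes) and DESeq2 (0.102%) called 0 of the 35. Their median log2 fold change was -0.01, and 0.07 without M + G 2. ESR1 was at 16.1, 14.9 and 21.1 CPM in M + E2 and at 16.4, 18.8 and 17.4 CPM in M + G, with full overlap (log2 fold change -0.01, 95% CI -0.50 to 0.48, and 0.043 without M + G 2). ESR2 was low, at 0.872, 1.14 and 1.58 CPM against 0.524, 0.746 and 0.900 CPM (log2 fold change 0.73, 95% CI -0.26 to 1.71). These intervals do not exclude differences of about the size of their limits.

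Of 36 genes known as estrogen-responsive in breast and uterus, 3 had an unadjusted p below 0.05 (8.33%, against 7.01% of all genes), and the median log2 fold change was -0.10. Without M + G 2 the median was 0.04, with 20 genes higher and 15 lower. HSPB8, a small heat shock protein gene, was at 60.8, 53.2 and 38.0 CPM in M + E2 and at 67.3, 102 and 87.5 CPM in M + G, lower and without overlap. LTF, the lactoferrin gene, was at 0.727, 1.27 and 5.48 CPM against 0.917, 0.427 and 0.675 CPM, so that 1 M + E2 library carried its higher mean. SPP1 was at 28.6, 5.83 and 12.9 CPM against 11.3, 174 and 14.7 CPM, and its log2 fold change was -2.09 with M + G 2 and 0.27 without it. The progesterone receptor gene PGR, a classic target, had a log2 fold change of -0.22 (95% CI -1.06 to 0.61), and of 0.24 without M + G 2.

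Other cell types gave smaller or less even differences. Of 21 endothelial genes the median log2 fold change was -0.20, and -0.07 without M + G 2. PLVAP, a protein of fenestrated vessels, was at 38.8, 50.5 and 38.2 CPM in M + E2 and at 80.5, 134 and 65.4 CPM in M + G, and the exact test called it (log2 fold change -1.13, and -0.78 without M + G 2). Contractile genes of peritubular cells had a median of -0.38 over 17 genes, and of 0.01 without M + G 2, in which ACTA2 was at 1165 CPM against 217 to 302 CPM in the other 5 libraries.

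The 13 erythroid genes had a median of -0.14, and of -0.33 without M + G 2. TFRC, the transferrin receptor of iron uptake, was at 117, 121 and 93.9 CPM in M + E2 and at 240, 253 and 166 CPM in M + G, without overlap. The hemoglobin gene HBB was at 232, 572 and 394 CPM against 850, 1349 and 427 CPM and overlapped (log2 fold change -1.13, and -0.68 without M + G 2). Of 22 T and NK cell genes, CD247, a chain of the T cell receptor complex, was at 23.1, 23.6 and 13.5 CPM against 42.0, 46.8 and 32.6 CPM and was the member with an unadjusted p below 0.05. The T and NK cell median was -0.07, and 0.19 without M + G 2. The 19 macrophage genes had a median of -0.07, and of 0.12 without M + G 2. Of the 19, 0 had an unadjusted p below 0.05 (7.01% of all genes did). The quasi-likelihood test (0% of all genes), the exact test (0.674%) and DESeq2 (0.102%) called 0 of them.

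Of 47 extracellular matrix genes, 33 had lower means in M + E2 and the median log2 fold change was -0.27, but without M + G 2 the median was 0.11 and 33 had higher means. COL9A1, a collagen best known from cartilage, was at 6.25, 4.31 and 6.64 CPM in M + E2 and at 1.96, 0.960 and 3.04 CPM in M + G, and the exact test called it (log2 fold change 1.53, adjusted p = 0.0181). Cell cycle genes had a median of 0.05 over 45 genes, and of 0.02 without M + G 2. CCND3, a D-type cyclin, was the member with an unadjusted p below 0.05, at 175, 215 and 215 CPM against 267, 324 and 342 CPM. Of 35 interferon-stimulated genes the median was 0.12, and 0.31 without M + G 2. Of these, 2 had an unadjusted p below 0.05 (5.71%, against 7.01% of all genes).

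Plain milk formula gives a level to set beside each difference. For some genes, STAR and CYP19A1 among them, its libraries spread from near or within M + E2 to above M + G. For these Milk does not show the side. The comparisons of M + E2 and of M + G with Milk share the Milk libraries, so their values are given side by side only. The Milk libraries themselves differed, with a chi-square per degree of freedom from 48.0 to 87.2. By edgeR's quasi-likelihood test 0 genes were called in M + E2 against Milk and 0 in M + G against Milk. Genes with an unadjusted p below 0.05 numbered 2772 for M + E2 (17.7%) and 406 for M + G (2.6%), and the exact test called 92 (0.636%) and 2 (0.0139%). Whether these numbers differ was not tested.

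Of the 99 genes that the exact test called between M + E2 and M + G, 87 (87.9%) were farther from Milk in M + E2 than in M + G, against 70.3% of all tested genes. This is a description, since the 99 were chosen on the same libraries. The log2 difference from Milk was -1.90 in M + E2 and 0.06 in M + G for HPD. For STAR, whose Milk libraries spread widely, it was -1.48 and 0.01. It was 1.89 and 0.16 for TVP23A, and 1.24 and 0.49 for AMH. The median over the sterol genes was -0.57 in M + E2 and 0.17 in M + G, and over nuclear oxidative phosphorylation genes it was -0.78 and -0.36. Summed over the sterol list, Milk was at 12005, 5606 and 11315 CPM, so its libraries spanned both groups. Summed over the oxidative phosphorylation list, Milk was at 12598, 10078 and 7005 CPM. These sums were above every M + E2 library and lay on both sides of M + G. The medians over epithelial genes were 0.30 in M + E2 and 1.41 in M + G, and 0.70 in M + G without M + G 2. EPCAM lay 0.76 from Milk in M + E2 and 4.57 in M + G, and 3.16 in M + G without M + G 2. KRT8 lay -1.29 from Milk in M + E2 and 0.11 in M + G, and -0.59 without M + G 2. The summed level of the epithelial list in Milk, 267 to 315 CPM, was above every M + E2 library and below M + G 2. By the same sum, M + G 1 (269 CPM) lay within the Milk range and M + G 3 (234 CPM) lay below it.

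**Figure D5:**
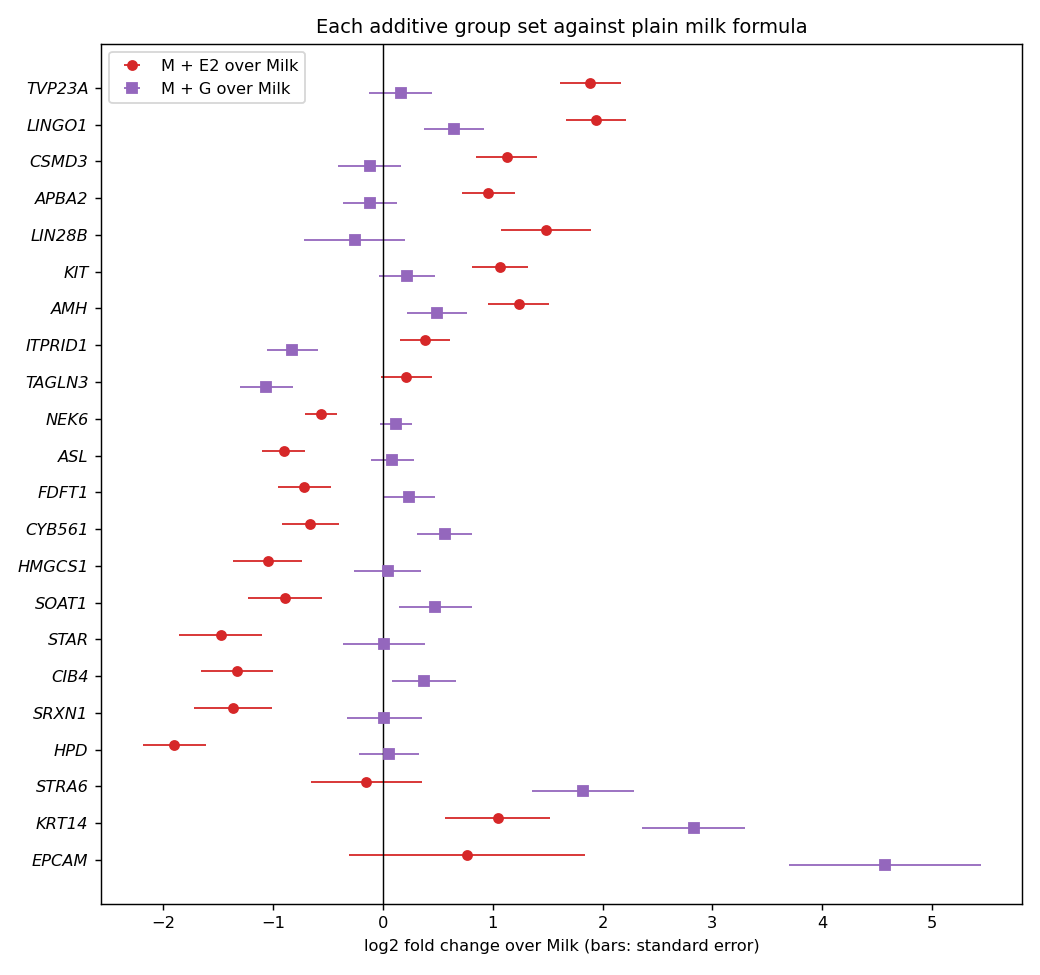
Log2 fold change over Milk of M + E2 (circles) and M + G (squares) for 22 genes, with bars of 1 standard error from the quasi-likelihood fit and a line at 0. For HPD, STAR and TVP23A the M + E2 points lay away from 0, and for EPCAM, STRA6 and TAGLN3 the M + G points, with M + G 2 included, did. The Milk libraries of STAR spread from near M + E2 to above M + G. Both sets share the Milk libraries.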

How the data were processed

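The authors mapped single-end reads with the CLC Genomics Workbench, first to a pig gene library and then to Ensembl build 11.1, and deposited raw counts per gene for 15 libraries (30476 genes). The analysis used edgeR 4.0.16 and DESeq2 1.42.0 (R 4.3.3), and its scripts were first tested on simulated data. After filterByExpr (minimum count 10), 15634 genes were tested in a single quasi-likelihood fit of 14 libraries, without Sow 2, which the study excluded. Adjusted p-values are Benjamini-Hochberg values over all tested genes. Numbers of genes whose libraries do not overlap refer to TMM-normalized CPM. Same-numbered M + G and Milk libraries deviated together (r of 0.231, 0.492 and 0.413), and the labels do not pair them. Some libraries with unlike numbers also did, such as M + E2 3 with Milk 2 (r of 0.254). Whether the libraries are paired was not tested. Comparisons were repeated with other libraries, filters, normalizations and tests.

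Gene lists were written by hand, and the comparison and lists were chosen with earlier results of these data known. Names came from the table or, for 798 identifiers, a reference table of gene names, and positions from RefSeq (Sscrofa11.1) by symbol. Named genes were the non-overlapping genes with the smallest p (6 per direction), those named in the study, and the first member and the 3 smallest p-values of each list. ABCA1, CDH1, DND1, ESR2, FBP2, FDPS, FDX1, FSHR, HMGCS1, HSD17B2, IDI1, KRT8, KRT14, LHCGR, MSMO1, MVK, PIWIL2, SLC5A7, SREBF2, TDRD1 and WT1 were added after their values were seen. P-values of the quasi-likelihood test and DESeq2, and the intervals, rest on the spread between libraries within all 5 groups of the fit. This includes the uneven Milk libraries. P-values of the exact test rest on the 3 libraries each of M + E2 and M + G. Some genes are not reported here.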

Additional observations from a re-analysis of the deposited data

How the results depend on the processing

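The number of genes called between M + E2 and M + G was 0 by edgeR's quasi-likelihood test, and also with Milk, M + E2 and M + G alone, all 15 libraries, DESeq2's size factors, at least 10 counts in each of the 6 libraries, adjusted p alone, and each library left out (0 to 0). It was 1 in a fit of the 6 libraries, 2 with no filter, 16 by DESeq2, 99 by the exact test and 299 by the exact test with adjusted p alone. With a library left out, the exact test called 52 to 221 genes. The genes with an unadjusted p below 0.05 numbered 1938 in the fit of 6 libraries, 1881 by the exact test and 657 to 1234 with a library left out. The cause of these differences between tests was not tested.

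Whether the replicate numbers pair M + E2 with M + G was not tested. Same-numbered libraries of M + E2 and M + G deviated from their group means with r of 0.119, 0.0639 and -0.126. With the replicate block, 1 gene was called between M + E2 and M + G, 3 between M + E2 and Milk and 0 between M + G and Milk.

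With a library left out, the list medians ranged from -0.39 to -0.20 for steroidogenesis, from -0.56 to -0.33 for antioxidant genes, from -1.53 to -0.56 for epithelial genes, from -0.90 to -0.65 for sterol genes, from -0.45 to -0.34 for oxidative phosphorylation and from 0.37 to 0.54 for germ cell markers. With at least 10 counts in each library, which tests fewer genes, the epithelial median was -0.53.

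Among the genes named, 8 with small or uneven differences changed sign. The log2 fold change of ESR1 was 0.012 in the fit of 6 libraries, 0.022 with all 15, 0.0070 with no filter, 0.00040 with at least 10 counts and 0.013 by the exact test. With a library left out, the values ranged from -0.19 to 0.090 for ESR1, from -0.33 to 0.082 for INSL3, from -0.15 to 0.065 for SREBF2, from -0.19 to 0.25 for INHA and from -0.48 to 0.24 for PGR. They ranged from -2.84 to 0.27 for SPP1, from -0.036 to 0.27 for SMAD6 and from -0.14 to 0.60 for GLB1L2. Groups of 3 libraries limit these comparisons, and intervals for genes with few reads are wide.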

Other observations

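Some of the genes that the study names overlapped between the groups here. SMAD6, an inhibitor of BMP signaling, was at 15.4, 18.5 and 18.2 CPM in M + E2 and at 11.5, 17.9 and 17.3 CPM in M + G (log2 fold change 0.16, 95% CI -0.86 to 1.17, and -0.036 without M + G 1). LECT2, a secreted chemotactic factor, was at 0.872, 1.27 and 1.48 CPM against 0.786, 0.960 and 0.675 CPM. GLB1L2, a galactosidase-like gene, was at 16.0, 18.9 and 31.6 CPM in M + E2 and at 20.9, 8.53 and 27.6 CPM in M + G. Milk was at 3.36, 5.83 and 9.65 CPM, with a mean below both, and M + G 2 lay within the Milk range. The log2 fold change of GLB1L2 was 0.23 (95% CI -0.82 to 1.28), -0.14 without M + E2 3 and -0.13 without M + G 2.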
